A study of Mus musculus with 139 samples.

Results

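The 38 genes described here carry glucose and lactate across the cell membrane, break glucose down to pyruvate, pass pyruvate into the mitochondrion and run the citric acid cycle. They were taken by symbol from a table of 55335 gene lines, in which they fill 39 lines because Aldoa is listed under a pair of identifiers, 1 of them with 0 counts. The table covers 139 single hair cells from mouse cochleae at postnatal days 14 to 16, each sequenced as a library of its own. Outer hair cells (OHCs), which amplify the movement of the sensory epithelium, numbered 21 (apex of the cochlear spiral), 23 (middle) and 8 (base). Inner hair cells (IHCs), which pass the signal on to the auditory nerve, numbered 34, 34 and 19 at the same places. No strain, genotype, sex or treatment is given in the labels, and no animal is named, so each of the 6 groups was taken as 1 sample: counts were summed over its cells, scaled by the trimmed mean of M values (TMM) and given as counts per 1000000 (CPM), and no test or p-value is reported. The titles of 81 cells carry a number of 100 or less and those of 58 cells a higher one; what the number stands for is not given in the labels, and values within both ranges are set beside those of all cells, with that for numbers above 100 given before that for 100 or less. Cells with numbers above 100 made up 12 of 21, 7 of 23 and 2 of 8 OHCs and 17 of 34, 13 of 34 and 7 of 19 IHCs from apex, middle and base.

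Glycolysis converts glucose to pyruvate in the cytosol and yields ATP without oxygen. Lactate dehydrogenase interconverts pyruvate and lactate, and monocarboxylate transporters move both through membranes. In mitochondria the pyruvate dehydrogenase complex turns pyruvate into acetyl-CoA, which the citric acid cycle oxidises to supply electrons to the respiratory chain. Hair cells spend ATP on ion pumping and on transmitter release, in an epithelium that has no blood vessels among its sensory cells.

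Cells held between 71027 and 13576942 counts. The median cell held 4092900, 1871530 and 2522430 counts in apical, middle and basal OHCs and 3597250, 6158040 and 6842130 counts in the IHC groups. Numbers of cells with a read given below therefore reflect depth as well as level, except where given at equal depth. In the group sums, markers of cell type followed the labels: 5 IHC markers (such as Otof) summed to 6664 to 10178 CPM in the IHC groups and 2.69 to 223 CPM in the OHC groups, and 7 OHC markers (such as Ocm) to 4838 to 7876 CPM in OHCs and 67.3 to 649 CPM in IHCs. The typical OHC held less of them outside the apex. Per cell, the median sum of the 7 OHC markers was 7258, 697 and 342 CPM in apical, middle and basal OHCs. In the IHC groups it was 132, 26.8 and 1.98 CPM. Markers of other cell types also differed between groups. All 10 genes of a blood and immune list were found in the table and summed to 19569 CPM in basal OHCs against 1611 CPM in apical OHCs, with 1 of the 10 at 0 in basal OHCs, and to 3424 CPM in basal IHCs against 397 CPM in apical IHCs; the middle groups had 2032 CPM in OHCs and 671 CPM in IHCs. A list of 10 mesenchyme and vessel genes summed to 20418 CPM in basal OHCs against 1248 CPM in apical OHCs, and to 2278 CPM in basal IHCs against 473 CPM in apical IHCs, where 1 of the 10 was at 0. The middle groups had 4728 CPM of it in OHCs and 3079 CPM in IHCs, above basal IHCs. A list of 10 neuron and glia genes stood at 15245 CPM in basal OHCs and 5101 to 7690.4 CPM in the other groups. Its highest gene was Nefm in middle and basal OHCs but Gata3 in apical OHCs and in all IHC groups. The sum is therefore not taken as an amount of nerve or glial material. The median basal OHC held 6713 CPM of the blood and immune list and 11312 CPM of the mesenchyme and vessel list. A list of 10 general hair cell genes summed to 6609, 2733 and 2139 CPM in apical, middle and basal OHCs, with cell medians of 4957, 1145 and 400 CPM. At the base against the apex of OHCs, 7 of the 9 that reached 5 CPM were at least 2-fold lower and 1 higher. The shares of all genes were 47.6% and 17.4%. The hair cell transcription factor Pou4f3 was at 4.13 CPM in basal OHCs against 649.9 CPM in apical OHCs, and the OHC motor protein gene Slc26a5 at 34.3 CPM against 697 CPM. A list of 9 supporting cell genes summed to 470, 880 and 1141 CPM in apical, middle and basal OHCs and to 2097, 2139 and 2944 CPM in the IHC groups. In OHCs against IHCs 6 of these 9 were at least 2-fold lower and 1 higher, and 7 of 7 blood and immune genes with at least 5 CPM in 1 or more groups were higher. Among all genes of that level, 39.2% were lower and 17.3% higher. In middle against apical OHCs, 6 of the 9 supporting cell genes and 7 of 9 mesenchyme and vessel genes of that level were higher, with 1 of each list lower, and 6 of 9 general hair cell genes were lower and 1 higher. All genes there gave 31.4% higher and 31.3% lower. These values go with the comparisons below, and their part in them was not tested.

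Over all cells, the summed counts of the 38 genes were highest in basal IHCs and lowest in apical IHCs. They summed to 1305, 1792 and 1748 CPM in apical, middle and basal OHCs and to 988 CPM in apical, 1925 CPM in middle and 2553 CPM in basal IHCs, 0.103% to 0.246% of a group's counts. Basal IHCs had the highest sum in both title-number ranges, at 3527 CPM with numbers above 100 and 1921 CPM with numbers of 100 or less. With numbers above 100 the lowest sum was that of apical IHCs, at 1311 CPM, but with numbers of 100 or less it was that of middle OHCs, at 184 CPM, against 918 CPM in apical IHCs. Single cells spread more widely than the groups. The lowest median over cells was that of middle OHCs, at 382 CPM. Per cell, the sum had a lowest, median and highest value of 39.5, 997 and 10479 CPM in basal OHCs against 14.4, 410 and 2955 CPM in apical OHCs. In IHCs the same 3 values were 233, 2324 and 6378 CPM at the base against 10.9, 819 and 2328 CPM at the apex. The basal and apical cells thus overlapped in both types, although the median basal IHC was close to the highest apical IHC.

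Cells with title numbers above 100 had the higher median sum in each of the 6 groups. The median was 1185 CPM in apical OHCs with numbers above 100 against 51.1 CPM in those with numbers of 100 or less, 3309 against 88.7 CPM in middle OHCs and 6067 against 429 CPM in basal OHCs. In apical IHCs it was 888 against 260 CPM, in middle IHCs 3678 against 415 CPM and in basal IHCs 3567 against 1515 CPM, in the same order of title numbers. The order was the same with every cell thinned to 582635 counts, which left 125 of 139 cells: the median number of the 38 genes with a read was 12 against 7 in apical OHCs, 30 against 9 in middle OHCs and, in basal OHCs, 22 in the 1 cell left with a number above 100 against 11.5. The same medians were 14.5 against 7.5, 27 against 8 and 23 against 11 in apical, middle and basal IHCs. Over all genes, the median number with a read was 3441.5 against 3401 in apical and 7527 against 3253 in middle OHCs. In basal OHCs it was 5235, in that 1 cell, against 2794. IHCs gave 4908 against 2808, 7675 against 2335 and 5441 against 2963.5 from apex to base. More of all genes were thus also read with numbers above 100, though hardly so in apical OHCs.

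**Figure D1:**
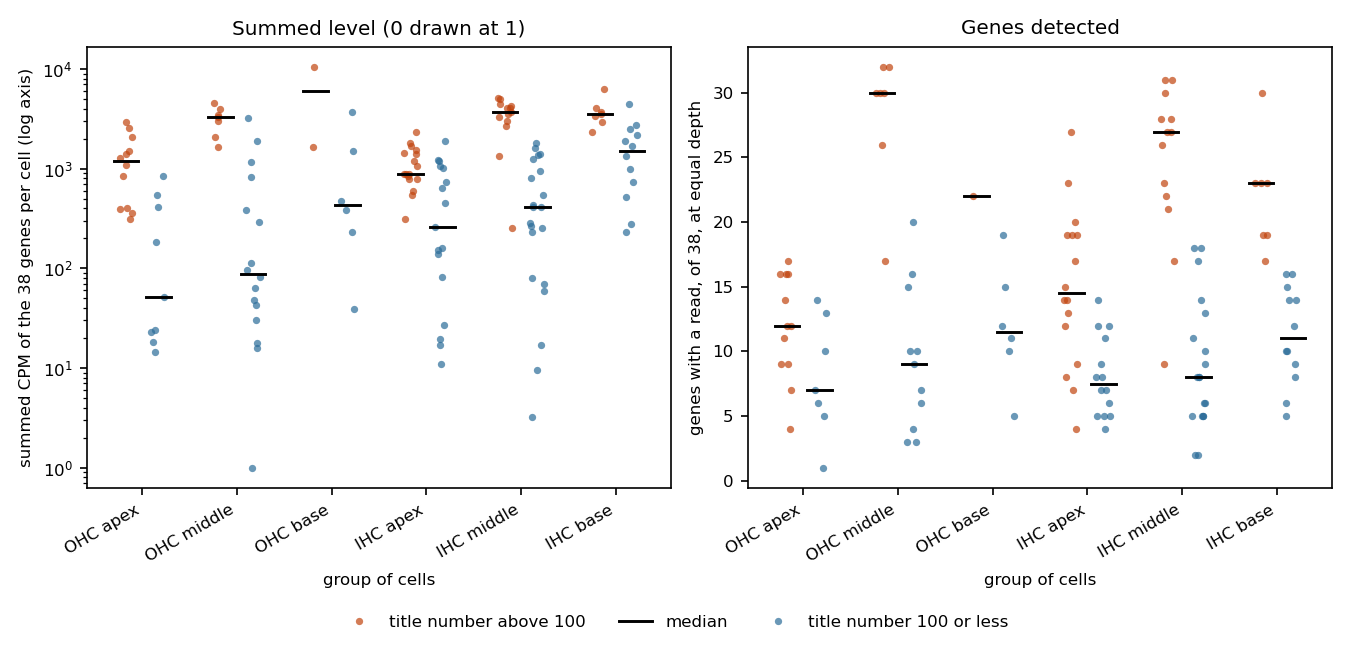
Each point is 1 cell: left, the summed CPM of the 38 genes (log axis, 0 drawn at 1); right, how many of the 38 genes had a read after thinning to 582635 counts. Groups run along the horizontal axis, colours give the title-number range and bars the median, which in middle OHCs is 3309 CPM for numbers above 100 and 88.7 CPM for the rest.

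Differences between groups are log2 ratios after 1 CPM was added to both levels, a scale that understates differences of low genes, and were counted from 2-fold upward for genes with at least 5 CPM in 1 or more groups. That level was reached by 15004 genes and by 35 of the 38, all but Slc2a3, Slc2a5 and Fh1. In basal against apical IHCs, 19 of the 35 were at least 2-fold higher, against 26.5% of all genes, and 6 were at least 2-fold lower, against 31.5%. The median log2 ratio was 1.10 for the 35 genes and −0.02 for all genes. It was 0.995 against −0.03 within numbers above 100, but 0.13 against 0 within numbers of 100 or less. With numbers above 100 only, 17 were higher, against 26.2% of all genes, and 6 lower, against 31.9%. With numbers of 100 or less, 13 were higher, against 18.9%, and 8 lower, against 25.8%. Without the cell that held most of a gene in each group, 20 were higher, against 16.2%, and 8 lower, against 28.1%. In basal against apical OHCs, 8 were higher, against 17.4% of all genes, and 20 lower, against 47.6%. The median there was −1.31 for the 35 genes and −0.72 for all genes. DESeq2's size factors in place of TMM moved those medians to −0.58 and −0.38, with 10 higher, against 21.4%, and 16 lower, against 44.7%. Among OHCs with numbers of 100 or less, the counts were 14 higher, against 19.3%, and 6 lower, against 14.7%, so the balance turned round within that range, which holds 6 of the 8 basal OHCs. With the 2 basal OHCs of numbers above 100, 7 were higher, against 12.2%, and 20 lower, against 54.1%.

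In middle against apical IHCs, 15 of the 35 were higher, against 28.7% of all genes, and 2 lower, against 23%. Middle against apical OHCs gave 16 higher, against 31.4%, and 7 lower, against 31.3%. Cells with numbers of 100 or less gave 9 higher and 9 lower in IHCs, against 20.4% and 21% of all genes, and 4 higher and 8 lower in OHCs, against 14.1% and 14.7%. DESeq2's size factors gave 10 higher and 3 lower in IHCs, against 24.6% and 25.8%, and 13 higher and 10 lower in OHCs, against 28.2% and 35.3%. In the mean of the 3 regions, OHCs against IHCs showed 2 genes at least 2-fold higher, against 17.3% of all genes, and 13 lower, against 39.2%, shares at or below those of all genes. Numbers of 100 or less gave 0 higher and 16 lower, against 9.84% and 34.9% of all genes, and leaving out the cell that held most of a gene gave 0 higher and 20 lower, against 3.89% and 36.9%. The median log2 ratio was −0.61 for the 35 genes and −0.59 for all genes. With DESeq2's size factors both medians were −0.26, and 6 were higher and 9 lower, against 23.2% and 32.4%. By region, 11 were higher and 6 lower at the apex, against 28.6% and 32.4% of all genes, 5 higher and 9 lower in the middle, against 20.7% and 29.7%, and 3 higher and 21 lower at the base, against 16.1% and 48.9%. In the middle the lower genes numbered 2 with DESeq2's size factors, against 25.7%, and 4 without TMM, against 27%, while 5 were higher under both, against 23% and 24%. At the base DESeq2's size factors gave 6 higher and 16 lower, against 21.1% and 44%. The counts by region also turned on which cells entered. At the apex, numbers of 100 or less gave 3 higher and 12 lower, against 9.62% and 30.3%, and leaving out the cell that held most of a gene gave 4 higher and 12 lower, against 11.2% and 32.1%. At the base, numbers of 100 or less gave 5 higher and 11 lower, against 14.3% and 23%. In the middle, leaving out shallow cells and cells rich in mitochondrial RNA gave 4 higher and 20 lower, against 15.5% and 42.1%.

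**Figure D2:**
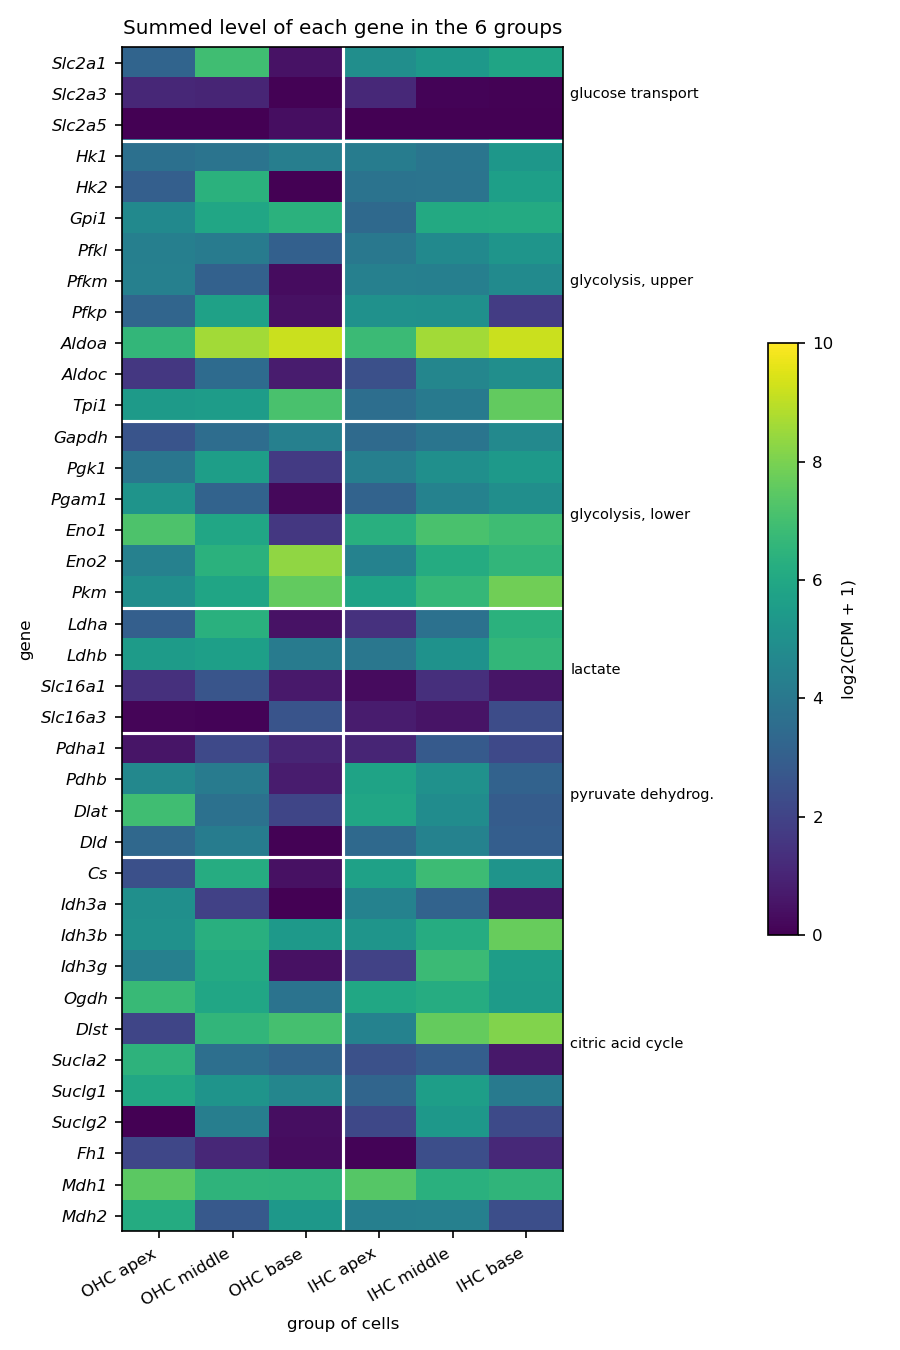
Colour shows log2(CPM + 1) of each of the 38 genes (rows, grouped by role) in the 6 groups (columns, OHCs left of IHCs, apex to base), from counts summed over cells. Aldoa is among the brightest rows in every group, at 97.4 to 588 CPM, and the hexose transporter genes Slc2a3 and Slc2a5 reach at most 1.22 CPM.

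A stricter count took genes that differed 2-fold or more the same way in all cells, within each title-number range with at least 5 cells in both groups, and without the deepest cell of each group. Basal against apical IHCs had 7 such genes that were higher (Ldha, Tpi1, Dlst, Aldoc, Aldoa, Pkm and Pgam1), against 4.89% of all genes, and 2 that were lower (Pfkp and Dlat), against 9.06%. Basal against apical OHCs had 7 that were higher (Dlst, Eno2, Pkm, Aldoa, Gapdh, Tpi1 and Gpi1), against 9.46%, and 4 that were lower (Pfkm, Hk2, Pfkp and Slc2a1), against 12.1%. OHCs against IHCs over the 3 regions had 7 that were lower (Cs, Aldoc, Pfkm, Eno1, Slc2a1, Dlst and Pdhb), against 21.7%, and 0 that were higher, against 4.47%. Middle against apical cells gave few: Suclg1 was higher in IHCs, against 5.44% of all genes, with 0 lower, against 5.33%. In OHCs Ldha was higher, against 3.93%, and Mdh2 and Pfkm were lower, against 4.44%. Tpi1, Pkm, Aldoa and Dlst were among the higher genes of basal against apical cells in both cell types. The comparisons of base and of middle with apex share the apical cells, and in comparisons with basal OHCs, 2 of which had numbers above 100, only the range of 100 or less counted.

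**Figure D3:**
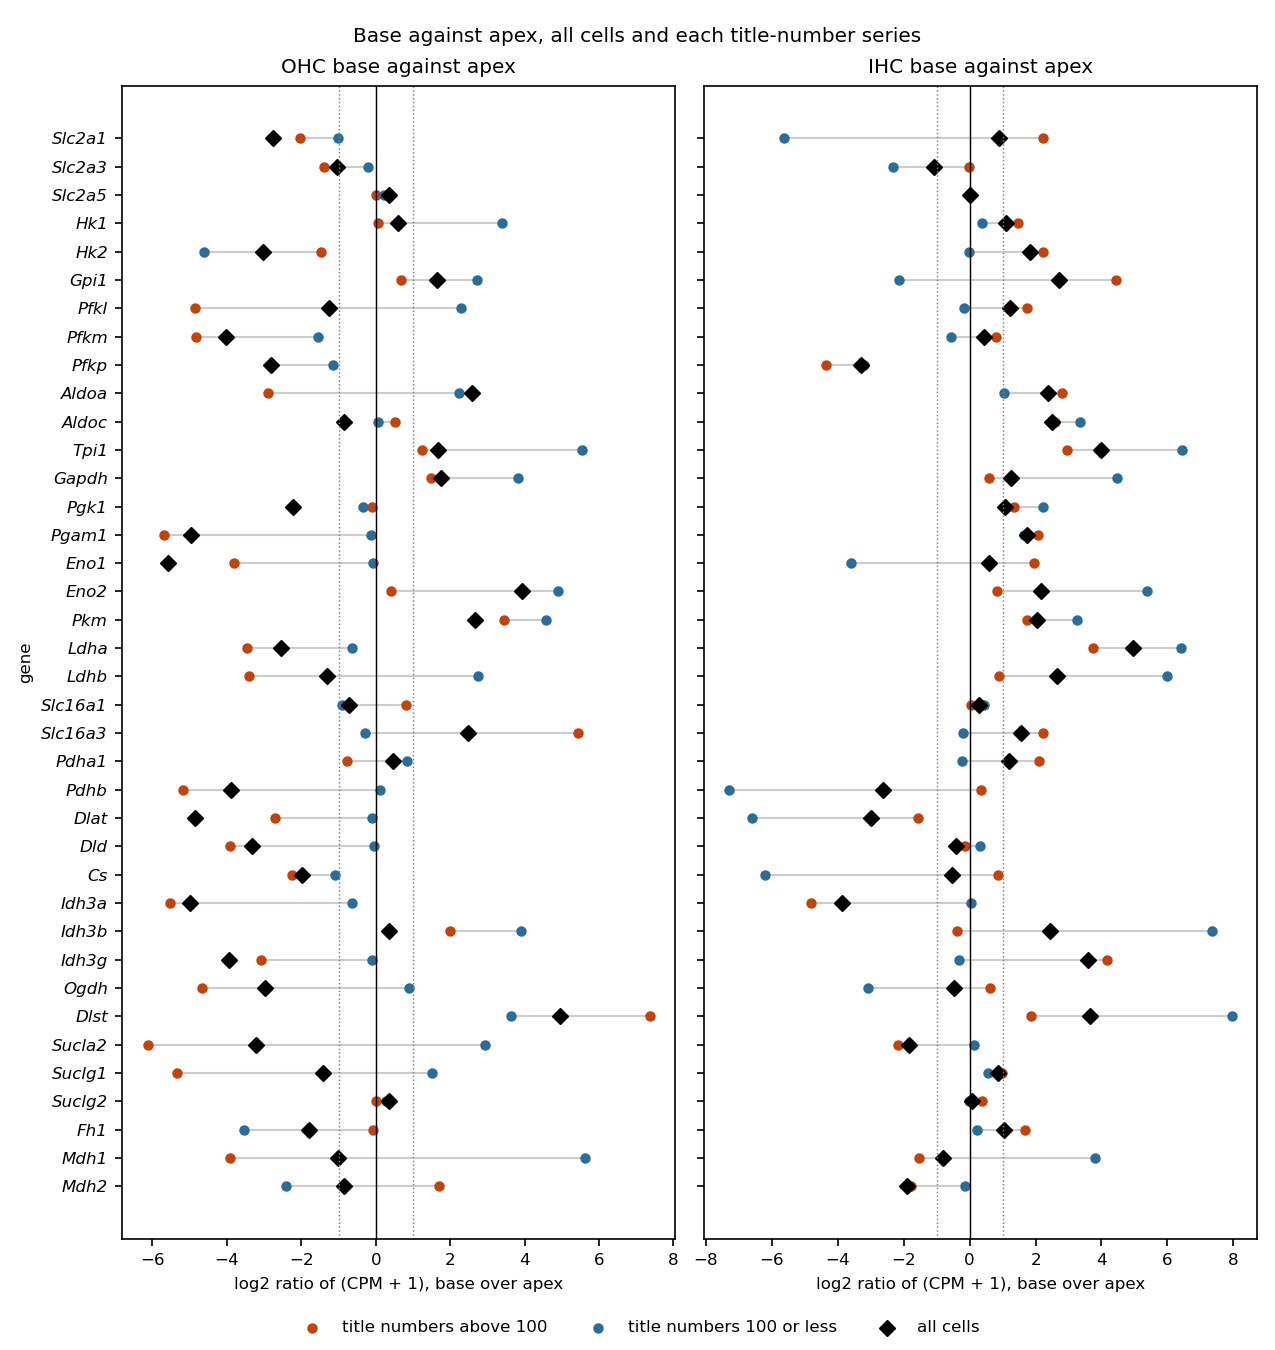
Each row is 1 of the 38 genes, and the horizontal axis is the log2 ratio of (CPM + 1), base over apex, in OHCs (left) and IHCs (right). Diamonds are all cells, dots the title-number ranges, the dotted lines mark 2-fold; the dots of Dlst lie right of 2-fold in both types, at 7.37 and 3.64 in OHCs and 1.85 and 7.96 in IHCs.

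Windows of the promoter are shown for Ldha and Tpi1, which differed most between basal and apical IHCs on the higher side, and for Pfkp, which differed most on the lower side among genes of that stricter count. Each runs from 250 bases before to 50 bases after the start that RefSeq gives, on GRCm38.p6, 5′ to 3′ on the strand of the gene. Capitals mark ACGTG or GCGTG on either strand, the core letters of the element bound by hypoxia-inducible factors, where ACGTG can overlap the E-box CACGTG. Ldha is at chr7:46845554-46845853 on the plus strand, Tpi1 at chr6:124814109-124814408 on the minus strand and Pfkp at chr13:6648722-6649021 on the minus strand.
Ldha: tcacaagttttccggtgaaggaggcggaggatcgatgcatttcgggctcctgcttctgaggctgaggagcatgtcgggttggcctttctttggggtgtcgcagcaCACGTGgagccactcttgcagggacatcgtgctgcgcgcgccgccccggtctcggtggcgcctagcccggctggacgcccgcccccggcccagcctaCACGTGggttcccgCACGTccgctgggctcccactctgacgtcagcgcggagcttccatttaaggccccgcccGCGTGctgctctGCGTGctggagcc
Tpi1: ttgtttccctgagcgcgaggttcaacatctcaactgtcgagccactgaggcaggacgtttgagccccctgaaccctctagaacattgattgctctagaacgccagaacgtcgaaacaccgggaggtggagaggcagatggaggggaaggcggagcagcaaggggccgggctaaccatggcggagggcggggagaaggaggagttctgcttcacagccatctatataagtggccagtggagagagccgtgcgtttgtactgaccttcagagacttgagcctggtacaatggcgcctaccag
Pfkp: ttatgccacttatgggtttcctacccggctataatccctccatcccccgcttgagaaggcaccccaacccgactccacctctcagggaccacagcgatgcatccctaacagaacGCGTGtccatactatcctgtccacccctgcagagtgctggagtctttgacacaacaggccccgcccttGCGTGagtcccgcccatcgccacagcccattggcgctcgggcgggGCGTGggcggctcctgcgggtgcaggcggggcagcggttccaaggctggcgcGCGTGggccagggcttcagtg
The Ldha window held ACGTG 5 times and GCGTG 2 times over both strands, counting both CACGTG palindromes on each strand. Pfkp held GCGTG 4 times, and Tpi1 held neither. Of the 36 genes with a RefSeq window (all but Slc2a3 and Idh3a), 22 held ACGTG or GCGTG, 61.1% against 43.8% of all 32851 windows of that length. Of the 7 genes higher in basal IHCs by the stricter count, 3 held one, or 42.9%. These are matches of letters and say nothing of binding. In the GENCODE annotation of GRCm38 the genes of the stricter count lie on several chromosomes, among them Ldha at chr7:46841475-46855627, Tpi1 at chr6:124810586-124814296, Dlst at chr12:85110833-85134845, Pkm at chr9:59656368-59679375 and Cs at chr10:128337734-128362479.

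Glucose enters most cells through facilitative transporters. Slc2a1, the transporter of blood-tissue barriers and many cell types, was the highest of the 3 genes per length of transcript in every group. It stood at 8.43, 122 and 0.398 CPM in apical, middle and basal OHCs and at 29.7, 39.5 and 56.1 CPM in apical, middle and basal IHCs. Reads were found in 4 of 8 basal OHCs against 8 of 21 apical OHCs and 8 of 19 basal IHCs against 11 of 34 apical IHCs. The highest basal OHC had 2.01 CPM against 123 CPM in the highest apical OHC, and the medians were 0.0566 and 0 CPM. Basal over apical OHCs gave a log2 ratio of −2.75 for Slc2a1, with −2.04 and −1.01 in cells with numbers above 100 and of 100 or less. In IHCs the ranges disagreed, at 2.23 and −5.62. OHCs over IHCs gave −1.82 for Slc2a1 in the mean of the regions, made of −1.70 at the apex, 1.60 in the middle and −5.35 at the base. With numbers above 100 the mean was −1.62, made of −1.07, 1.57 and −5.34. With numbers of 100 or less it was −1.60, made of −4.64, −0.14 and −0.03, so it lay in the apex. In that range 1 apical IHC had 459 CPM of the 3 genes together, and the next had 39.9 CPM. Slc2a3, the neuronal transporter, had 0.0498 to 1.22 CPM and Slc2a5, a fructose transporter, 0 to 0.299 CPM over the 6 groups, with reads in at most 7 and 2 cells of any group.

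Hexokinases trap glucose as glucose 6-phosphate. Hk1, the form of brain and many other tissues, was present at 11.97, 13.5 and 18.5 CPM in apical, middle and basal OHCs and at 17.3, 13.6 and 38.2 CPM in apical, middle and basal IHCs. Hk2, the form of muscle and of highly glycolytic cells, stood at 7.18, 83.6 and 0 CPM in apical, middle and basal OHCs and at 12.9, 13.4 and 48.8 CPM in the IHC groups. Every one of the 8 basal OHCs had a read of Hk1 and none had one of Hk2. With 3 counts over the group as the limit of a count of 0, Hk2 was at least 48.1-fold lower in basal than in apical OHCs, where 8 of 21 cells had a read and 77.4% of the counts came from 1 cell. In basal IHCs 1 cell held 97.0% of the Hk2 counts, and the log2 ratio of basal over apical IHCs was 1.84 in all cells and −0.87 without the cell that held most of the gene in each group. Gpi1, which isomerises glucose 6-phosphate, gave a log2 ratio of 1.65 in basal over apical OHCs, at 82.6 against 25.6 CPM, with 0.68 and 2.73 in numbers above 100 and of 100 or less. In basal over apical IHCs it gave 2.71, at 69.0 against 9.69 CPM, but 4.43 and −2.13 in the 2 ranges.

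The 3 phosphofructokinase genes encode the liver, muscle and platelet types of the enzyme that commits sugar to glycolysis, and their levels did not run together. Pfkp, the platelet type, stood at 8.46, 52.4 and 0.349 CPM in apical, middle and basal OHCs and at 32.1, 31.8 and 2.40 CPM in apical, middle and basal IHCs. The basal groups of both types were the lowest. Cells ran from 0 over a median of 0.113 to 41.7 CPM in basal IHCs against 0, 0 and 534 CPM in apical IHCs, so the difference lay in the highest cells. The log2 ratio of basal over apical IHCs was −3.28, with −4.35 and −3.19 in numbers above 100 and of 100 or less and −3.84 without the cell that held most of the gene in each group. In basal over apical OHCs it was −2.81, with −2.79 and −1.16 in the ranges.

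Pfkm, the muscle type, was at 19.3, 7.69 and 0.249 CPM in apical, middle and basal OHCs and at 19.7, 19.1 and 26.9 CPM in apical, middle and basal IHCs. The OHC sums were thus lower toward the base, and the IHC groups lay within 19.1 to 26.9 CPM. Reads of Pfkm were found in 2 of 8 basal OHCs, at most 0.453 CPM, against 7 of 21 apical OHCs, at most 94.3 CPM. The log2 ratio was −4.02 in basal over apical OHCs, with −4.83 and −1.54 in the ranges, −1.23 in middle over apical OHCs, with −1.12 and −1.67, and −1.91 in OHCs over IHCs. Its exons overlap those of Gm26513 on the same strand and of Senp1 on the other, and the sources used here do not say if strand entered the counting. Pfkl, the liver type, stood at 19.2, 16.9 and 7.47 CPM in the OHC groups and 15.04, 26.1 and 36.2 CPM in the IHC groups, from apex to base, with 95.3% of the basal OHC counts in 1 cell.

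Aldolase splits fructose 1,6-bisphosphate. Aldoa, the muscle and general form, was the highest gene of upper glycolysis per length in all 6 groups, at 97.4, 393 and 586 CPM in apical, middle and basal OHCs and 112.1, 394 and 588 CPM in apical, middle and basal IHCs. The 2 cell types therefore had nearly the same series of sums. The cells behind them did not look alike. All 19 basal IHCs had a read of Aldoa, with a lowest, median and highest value of 0.332, 108.9 and 2516 CPM, against 0, 16.2 and 379 CPM in apical IHCs. In basal OHCs the 3 values were 0, 9.49 and 1970.5 CPM, and 95.1% of the counts came from 1 cell, against 0, 4.04 and 404 CPM in apical OHCs. The log2 ratio of basal over apical IHCs was 2.38, with 2.79 and 1.05 in the ranges and 2.15 without the cell that held most. In OHCs it was 2.58, but −0.83 without that cell, −2.89 in numbers above 100 and 2.24 in numbers of 100 or less.

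Aldoc, the brain form, was lower, at 2.07, 10.3 and 0.697 CPM in the OHC groups and 4.46, 22.8 and 29.7 CPM in the IHC groups from apex to base. The log2 ratio of OHCs over IHCs was −2.03, with −0.83, −1.08 and −4.18 at apex, middle and base. Basal over apical IHCs gave 2.49 for Aldoc, with 2.58 and 3.35 in the ranges, although 7 of 19 basal IHCs had a read, at most 284 CPM, against 9 of 34 apical IHCs, at most 52.7 CPM.

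Tpi1 encodes triosephosphate isomerase, which turns 1 product of the split into the other so that both can go on. It stood at 43.2, 45.6 and 139 CPM in apical, middle and basal OHCs and at 11.4, 15.8 and 194 CPM in apical, middle and basal IHCs. The base was the highest of the 3 places in both types. Reads were found in all 8 basal OHCs and in 18 of 19 basal IHCs, against 7 of 21 apical OHCs and 15 of 34 apical IHCs. At equal depth these were 6 of 7 and 11 of 19 cells against 5 of 19 and 9 of 30. The lowest, median and highest basal IHC had 0, 11.4 and 1561 CPM, against 0, 0 and 421 CPM in apical IHCs. In basal OHCs the values were 0.506, 16.0 and 828 CPM, against 0, 0 and 308 CPM in apical OHCs. Basal over apical IHCs gave a log2 ratio of 3.97, with 2.94 and 6.45 in numbers above 100 and of 100 or less. In OHCs it was 1.67, with 1.24 and 5.53, and 4.16 without the cell that held most of the gene, since 1 cell held 94.7% of the apical counts.

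**Figure D4:**
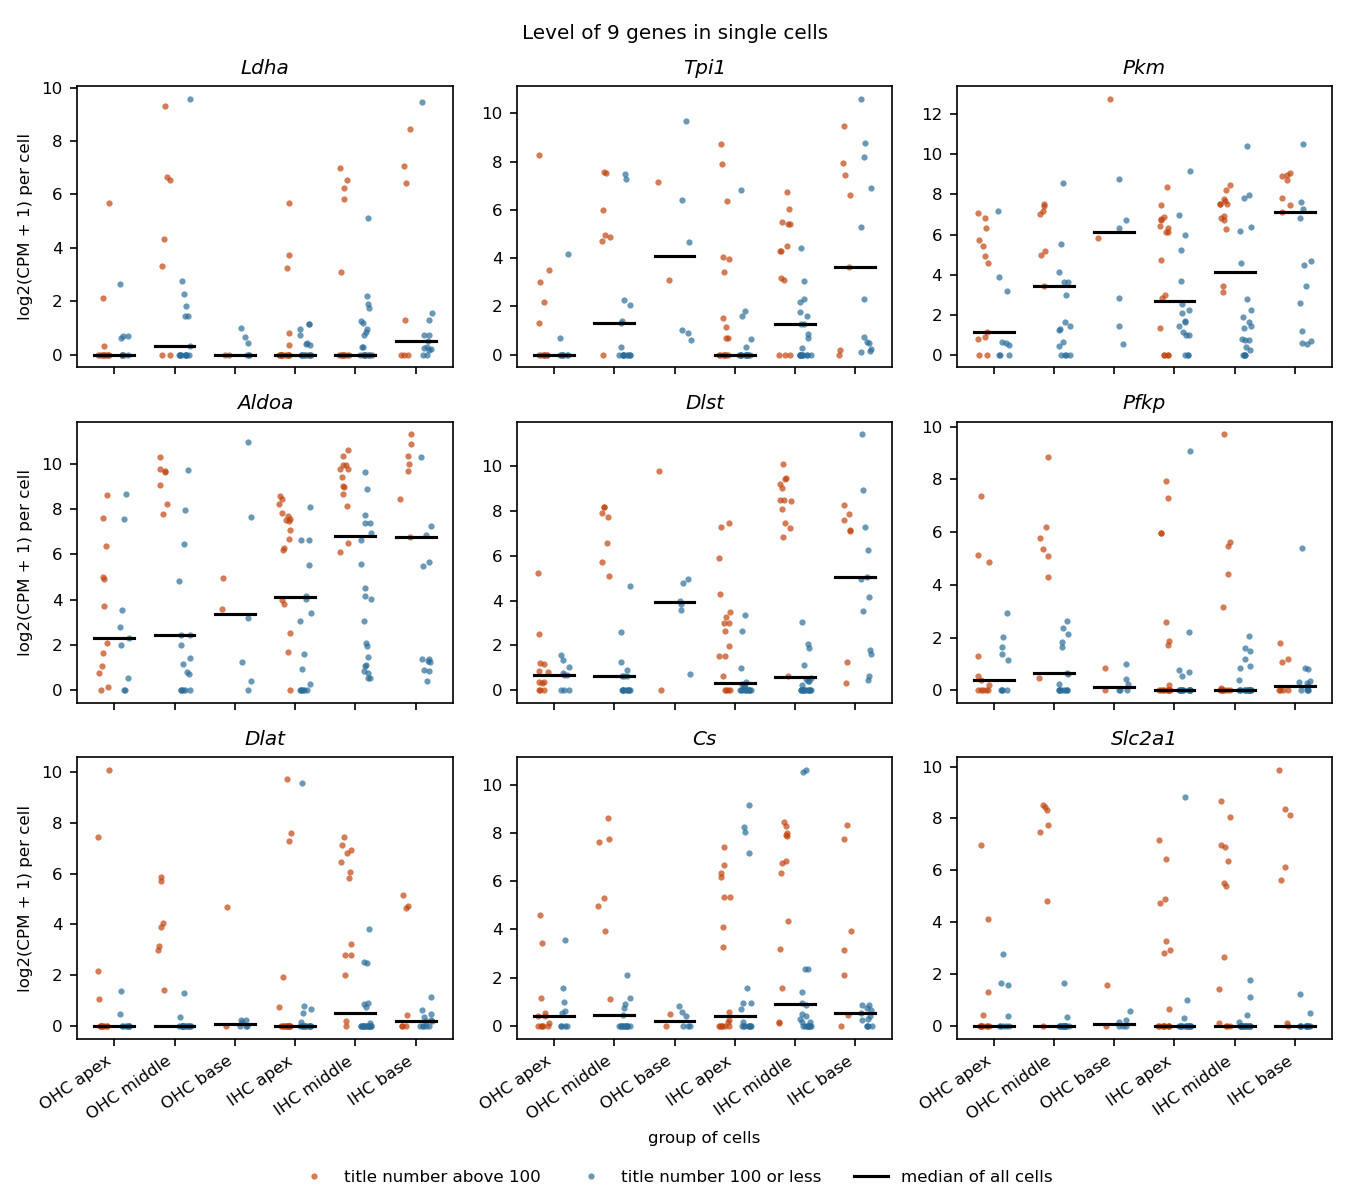
Each point is 1 cell and the vertical axis is log2(CPM + 1) of the named gene; colours give the title-number range and bars the median of all cells of the group. Tpi1 and Pkm have bars above 0 at the base of both types, at 16.0 and 67.8 CPM in OHCs and 11.4 and 138 CPM in IHCs, while Pfkp and Dlat lie near 0 there.

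From triose phosphates to pyruvate the genes did not move as 1 block. Gapdh, which oxidises glyceraldehyde 3-phosphate, was read at 5.06, 10.997 and 19.6 CPM in apical, middle and basal OHCs and at 9.83, 13.99 and 24.8 CPM in apical, middle and basal IHCs. The gene has many processed copies in the mouse genome, and reads shared with them may have been dropped or split. Without equal depth, reads were found in 7 of 8 basal against 11 of 21 apical OHCs and 18 of 19 basal against 19 of 34 apical IHCs. Basal over apical OHCs gave a log2 ratio of 1.77, with 1.49 and 3.81 in the ranges. In IHCs it was 1.25, with 0.60 and 4.48. Pgk1, the phosphoglycerate kinase of somatic cells, stood at 14.3, 48.1 and 2.29 CPM in the OHC groups and 18.7, 30.4 and 39.997 CPM in the IHC groups.

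Pgam1, a phosphoglycerate mutase, was at 34.7, 8.0 and 0.149 CPM in apical, middle and basal OHCs and at 8.08, 20.4 and 29.4 CPM in apical, middle and basal IHCs, opposite slopes in the 2 types. Basal over apical IHCs gave a log2 ratio of 1.74, with 2.06 and 1.66 in the ranges. Basal OHCs had 3 counts in all against 3494 in apical OHCs, a ratio of 0.00430 with a counting interval of 0.000886 to 0.0126, and in numbers of 100 or less the log2 ratio was −0.14, at 0.125 CPM in basal against 0.236 CPM in apical OHCs.

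Enolase makes phosphoenolpyruvate. Eno1, the general form, stood at 148, 58.7 and 2.09 CPM in apical, middle and basal OHCs and at 78.0, 139 and 117.5 CPM in apical, middle and basal IHCs. In apical OHCs 86.8% of its counts came from 1 cell. OHCs over IHCs gave −1.86 in the mean of the regions, with 0.92, −1.23 and −5.26 at apex, middle and base, −1.19 and −4.06 in the ranges and −2.59 without the cell that held most. Eno2, the neuronal form, was at 20.3, 82.7 and 322 CPM in the OHC groups and 20.6, 70.9 and 95.1 CPM in the IHC groups. A single basal OHC held 94.1% of the Eno2 counts of its group. The lowest, median and highest basal OHC had 0, 17.04 and 1071 CPM, against 0, 1.197 and 143 CPM in apical OHCs. The log2 ratio of basal over apical OHCs was 3.92, with 0.42 and 4.89 in numbers above 100 and of 100 or less and 0.49 without the cell that held most.

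Pkm, which encodes the muscle and embryonic pyruvate kinases that end the pathway, was read in every basal cell, all 8 OHCs and all 19 IHCs, against 16 of 21 apical OHCs and 27 of 34 apical IHCs. Its levels were 29.6, 58.5 and 193 CPM in apical, middle and basal OHCs and 54.3, 99.3 and 225 CPM in apical, middle and basal IHCs. The sums increased from apex over middle to base in both types. The lowest, median and highest basal IHC had 0.449, 138 and 1474 CPM, against 0, 5.36 and 582 CPM in apical IHCs. Basal OHCs had 0.453, 67.8 and 7038 CPM, against 0, 1.16 and 142 CPM in apical OHCs, the highest being the shallowest basal cell with 134269 counts. Basal over apical IHCs gave a log2 ratio of 2.03, with 1.74 and 3.27 in the ranges and 1.76 without the cell that held most. In OHCs it was 2.66, with 3.43 and 4.58 and 1.58.

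Lactate dehydrogenase is a tetramer of A and B subunits. Ldha, the subunit that predominates in skeletal muscle, stood at 7.09, 79.98 and 0.398 CPM in apical, middle and basal OHCs and at 1.70, 12.3 and 82.7 CPM in apical, middle and basal IHCs. The highest group was the middle in OHCs and the base in IHCs. Reads were found in 3 of 8 basal OHCs, 12 of 23 middle OHCs and 7 of 21 apical OHCs, and in 14 of 19 basal against 12 of 34 apical IHCs. The lowest, median and highest values were 0, 0.440 and 709 CPM in basal IHCs against 0, 0 and 50.3 CPM in apical IHCs, so the median basal cell lay within the range of the apical ones. Without the cell that held most of the gene in each group, the log2 ratio of basal over apical IHCs was 3.49, against 4.95 in all cells. Middle over apical OHCs gave 3.32 for Ldha, with 3.49 and 2.03 in numbers above 100 and of 100 or less, but −0.64 without shallow cells and cells rich in mitochondrial RNA.

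Ldhb, the subunit that predominates in heart, was the highest lactate gene per length in all 6 groups, at 43.8, 49.5 and 17.1 CPM in apical, middle and basal OHCs and 14.7, 33.1 and 97.5 CPM in apical, middle and basal IHCs. Basal over apical IHCs gave a log2 ratio of 2.64, with 0.89 and 6.00 in the ranges. In OHCs it was −1.31, with −3.40 and 2.76. The lactate transporters were low. Slc16a1, the broadly expressed monocarboxylate transporter, had 1.61, 5.18 and 0.598 CPM in the OHC groups and 0.209, 1.52 and 0.471 CPM in the IHC groups. Slc16a3, which exports lactate from glycolytic muscle, had 0.0995, 0.0645 and 5.13 CPM in the OHC groups and 0.702, 0.451 and 3.99 CPM in the IHC groups, with 98.1% and 98.3% of the basal counts of OHCs and IHCs in 1 cell each.

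Shares of paralogs in the same step differed between groups, although Ldhb and Aldoa made up most of their steps in every group. Set per length of transcript (CPM per kb), Eno2 made up 13.5%, 61.7% and 99.4% of the enolase level in apical, middle and basal OHCs and 23.2%, 36.9% and 48.04% in apical, middle and basal IHCs. Its share was larger in that order in both types over all cells, but not within the title-number ranges. In IHCs with numbers above 100 it was 38.4%, 36.99% and 22.5% from apex to base, and in those of 100 or less 1.56%, 20.9% and 92.7%. The OHC shares were 12.4%, 61.6% and 74.1% with numbers above 100 and 95.8%, 90.3% and 99.9% with numbers of 100 or less. By cells the picture was flatter: Eno2 was the higher enolase in 7 of the 8 basal OHCs with either gene against 10 of 16 apical OHCs, and in 8 of 18 basal against 14 of 24 apical IHCs. Ldha made up 7.14%, 43.4% and 1.09% of the lactate dehydrogenase level in the OHC groups and 5.18%, 15.02% and 28.7% in the IHC groups. Ldhb was the higher subunit in 5 of 6 basal and 12 of 15 apical OHCs and in 11 of 18 basal and 13 of 20 apical IHCs with a read of either.

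Hk2 made up 46.2%, 89.9% and 0% of the hexokinase level in the OHC groups and 51.6%, 58.5% and 64.6% in the IHC groups, yet in basal IHCs Hk1 was the higher gene in 13 of 18 cells. Pfkp made up 6.80%, 44.7% and 2.13% of phosphofructokinase in the OHC groups and 22.7%, 19.8% and 1.31% in the IHC groups. With numbers above 100 the Pfkp share was 6.63%, 44.7% and 100% in OHCs, the last from 1 cell, and 16.8%, 22.5% and 0.215% in IHCs. With numbers of 100 or less it was 13.3%, 44.9% and 1.53% in OHCs and 55.7%, 0.635% and 12.1% in IHCs. Aldoa made up 95.1% to 99.9% of aldolase in all groups over all cells. Its share was 75.96% in basal OHCs with numbers above 100 and 90.7% in basal IHCs with numbers of 100 or less. Sucla2, the ATP-forming beta subunit of succinyl-CoA ligase, made up 99.99%, 41.97% and 97.0% of that subunit in the OHC groups and 60.3%, 16.8% and 14.9% in the IHC groups, against the GTP-forming Suclg2, with reads of either gene in 3 of 21 apical OHCs.

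**Figure D5:**
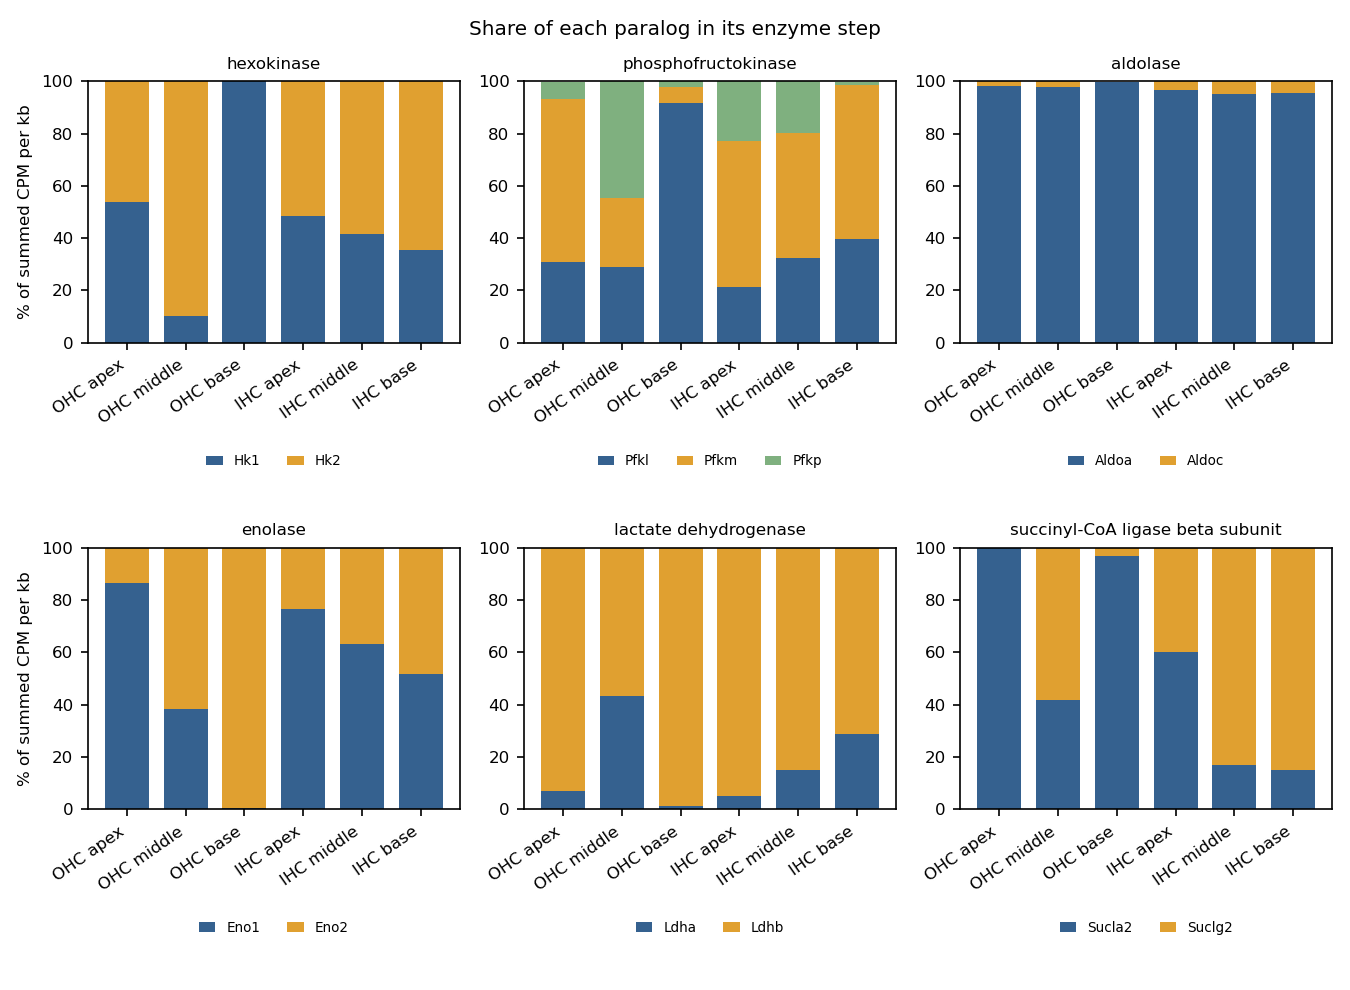
Bars give the share (%) of each paralog in the summed CPM per kb of its enzyme step, from counts summed over the cells of each group on the horizontal axis. Over all cells the Eno2 share is largest at the base in both types, at 99.4% in OHCs and 48.04% in IHCs, although in IHCs with numbers above 100 it is 22.5% at the base against 38.4% at the apex, and Aldoa is 95.1% or more of aldolase in all 6 groups.

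The 4 genes of the pyruvate dehydrogenase complex summed to 156, 49.8 and 5.03 CPM in apical, middle and basal OHCs and to 124, 86.9 and 25.1 CPM in apical, middle and basal IHCs, the only role whose sum over all cells was lowest at the base and highest at the apex in both types. That order did not hold in both ranges. With numbers above 100 the sums were from apex to base 229, 78.2 and 26.5 CPM in OHCs and 76.02, 130.2 and 53.1 CPM in IHCs, and with numbers of 100 or less 0.787, 0.925 and 1.62 CPM in OHCs and 300.5, 22.6 and 2.99 CPM in IHCs. Dlat, the acetyltransferase core, stood at 122, 12.1 and 3.24 CPM in the OHC groups and 58.7, 27.7 and 6.52 CPM in the IHC groups. The highest basal IHC had 34.5 CPM against 841 CPM in the highest apical IHC, and medians were 0.153 and 0 CPM. In basal over apical IHCs the log2 ratio was −2.99, with −1.57 and −6.61 in the ranges. In OHCs it was −4.86, with −2.71 and −0.09, and 80.9% of the apical OHC counts lay in 1 cell.

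Pdhb, the beta subunit of the decarboxylase, stood at 24.1, 16.7 and 0.697 CPM in the OHC groups and 54.3, 32.2 and 7.94 CPM in the IHC groups, with −1.48 for OHCs over IHCs in the mean of the regions and −1.14, −0.91 and −2.40 at apex, middle and base. Cells of the 2 types overlapped: the highest values were 2.03 CPM in basal OHCs and 103.6 CPM in basal IHCs, 195 and 672 CPM at the apex. In basal over apical IHCs Pdhb changed sign between the ranges, at 0.35 in numbers above 100 and −7.29 in numbers of 100 or less. Pdha1, the alpha subunit, had 0.487 to 6.10 CPM over the groups. A read was found in 16 of 19 basal IHCs against 8 of 34 apical IHCs, not at equal depth. Dld, the dihydrolipoamide dehydrogenase that this complex shares with the 2-oxoglutarate complex, had 9.54, 17.4 and 0.0498 CPM in the OHC groups and 9.64, 20.9 and 6.97 CPM in the IHC groups.

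In the citric acid cycle, the stricter count held Cs and Dlst between cell types and Dlst between base and apex. Cs, which joins acetyl-CoA to oxaloacetate, had the largest log2 ratio of the 35 genes between cell types, at 4.37, 71.6 and 0.349 CPM in apical, middle and basal OHCs and 52.5, 115.3 and 35.6 CPM in apical, middle and basal IHCs. OHCs were lower at each place. OHCs over IHCs gave a log2 ratio of −2.92, with −3.32, −0.68 and −4.76 at apex, middle and base and −2.77 and −4.20 in the ranges. Per cell, Cs ran from 0 over 0.323 to 23.2 CPM in apical OHCs against 0, 0.347 and 565 CPM in apical IHCs, and from 0 over 0.170 to 0.780 CPM in basal OHCs against 0, 0.440 and 322 CPM in basal IHCs. Medians were thus near each other and below 1 CPM, and the difference lay in the highest cells. In the middle, OHCs had 0, 0.365 and 392 CPM and IHCs 0, 0.872 and 1548 CPM.

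Isocitrate dehydrogenase 3 has an alpha, a beta and a gamma subunit, and their levels did not run together. Idh3a stood at 30.9, 2.81 and 0 CPM in the OHC groups and 20.8, 8.02 and 0.501 CPM in the IHC groups, from apex to base. With 3 counts as the limit, it was at least 207-fold lower in basal than in apical OHCs, where 1 cell held 99.5% of its counts. Idh3b stood at 32.3, 78.5 and 41.8 CPM in the OHC groups and 36.5, 72.0 and 203 CPM in the IHC groups, with 67.8% of the basal IHC counts in 1 cell. In basal over apical IHCs its log2 ratio was 2.45, but −0.38 in numbers above 100 and 7.36 in numbers of 100 or less. Idh3g stood at 19.7, 68.4 and 0.349 CPM in the OHC groups and 2.93, 111.8 and 46.4 CPM in the IHC groups.

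Dlst, the succinyltransferase of the 2-oxoglutarate dehydrogenase complex, differed between base and apex in both types. It stood at 3.31, 94.4 and 131 CPM in apical, middle and basal OHCs and at 20.7, 197 and 273 CPM in apical, middle and basal IHCs. Sums increased from apex to base, and OHCs were lower than IHCs at each place. All 19 basal IHCs had a read, from 0.359 CPM in the lowest over a median of 32.04 to 2708 CPM in the highest, against 0, 0.248 and 176 CPM in apical IHCs. Basal OHCs had 0, 14.1 and 879.7 CPM, with a read in 7 of 8 cells, against 0, 0.606 and 36.1 CPM in apical OHCs. The medians lay far apart and the cells still overlapped. The log2 ratio was 3.66 in basal over apical IHCs, with 1.85 and 7.96 in the ranges and 3.04 without the cell that held most of the gene. In OHCs it was 4.94, with 7.37 and 3.64, and 3.502. OHCs over IHCs gave −1.48, with −2.33, −1.05 and −1.05 at apex, middle and base, but −0.34 in numbers above 100 against −1.41 in those of 100 or less. Its partner Ogdh, the decarboxylase of the same complex, stood at 107.1, 58.9 and 12.8 CPM in the OHC groups and 61.2, 71.4 and 43.4 CPM in the IHC groups, with −2.96 in basal over apical OHCs but 0.89 in numbers of 100 or less. Its log2 ratio in basal over apical IHCs was −0.49, with 0.62 and −3.10 in the ranges. The further genes listed below include Ogdhl, a paralog of Ogdh. Ogdhl was the highest of their 9 citric acid cycle genes in every group. Those 9 genes summed to 1419, 1011 and 14582 CPM in apical, middle and basal OHCs. In the IHC groups they summed to 1768, 1588 and 8329 CPM. Ogdh alone thus does not give the level of this step.

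Succinyl-CoA ligase shows how far 1 cell could carry a sum. Sucla2 stood at 87.8, 11.4 and 8.47 CPM in the OHC groups and 4.63, 6.87 and 0.570 CPM in the IHC groups, with 99.99%, 97.2% and 97.1% of the OHC counts in 1 cell of each group. Its log2 ratio of OHCs over IHCs was 2.41, and −0.85 without those cells. Suclg2 stood at 0.00995, 18.3 and 0.299 CPM in the OHC groups and 3.53, 39.4 and 3.76 CPM in the IHC groups. Suclg1, the alpha subunit common to both forms, stood at 63.6, 35.1 and 23.2 CPM in the OHC groups and 8.65, 47.9 and 16.5 CPM in the IHC groups. Middle over apical IHCs gave 2.34 for Suclg1, with 1.82 and 3.04 in the ranges, and cells from 0 over 1.53 to 1194 CPM in the middle against 0, 0 and 133 CPM at the apex.

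Mdh1, the cytosolic malate dehydrogenase, was listed with the citric acid cycle, although the cycle itself runs in mitochondria. Mdh1 was the highest gene of that list per length in the 3 OHC groups and in apical IHCs. It stood at 177, 88.6 and 87.8 CPM in apical, middle and basal OHCs and 162, 80.8 and 92.8 CPM in apical, middle and basal IHCs. It was highest at the apex in both types, with 74.3% of the apical OHC counts in 1 cell. In basal over apical IHCs its log2 ratio was −0.80, with −1.55 in numbers above 100 and 3.82 in numbers of 100 or less. Mdh2, the mitochondrial form, stood at 70.4, 5.84 and 38.8 CPM in the OHC groups and 18.9, 19.7 and 4.35 CPM in the IHC groups. Middle over apical OHCs gave −3.38 for Mdh2, with −3.34 and −2.66 in the ranges, and cells from 0 over 0.0930 to 53.6 CPM in the middle against 0, 0.154 and 535 CPM at the apex. Fh1, fumarate hydratase, had 0.0607 to 4.28 CPM and did not reach the level of 5 CPM in any group.

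A further 79 genes of the same pathways and their control were listed, and 65 reached 5 CPM. In basal against apical IHCs 21 of them were at least 2-fold higher, against 26.5% of all genes, and 14 lower, against 31.5%, with a median log2 ratio of 0.21. Eno3, the muscle enolase, was at 152 CPM in basal IHCs against 0.688 CPM in apical IHCs, a log2 ratio of 6.502, with 3.16 and 7.96 in the ranges. Got2, the mitochondrial aspartate aminotransferase of the malate-aspartate shuttle, was at 689 against 71.95 CPM, and Slc25a12, the aspartate-glutamate carrier of the same shuttle, at 262 against 30.7 CPM, with log2 ratios of 3.24 (0.92 and 9.58 in the ranges) and 3.05 (2.28 and 2.77). Slc16a7, a high-affinity monocarboxylate transporter, was at 4.93 CPM in basal against 67.6 CPM in apical IHCs, with −3.39 and −0.12 in the ranges. Pdp2, a phosphatase that activates pyruvate dehydrogenase, was at 108.5 against 461 CPM, with −1.97 and −2.86 in the ranges. Pdhx, which anchors Dld in the pyruvate dehydrogenase core, was at 0.144 against 9.90 CPM, with −3.67 and −3.28.

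In basal against apical OHCs 18 of the 65 were higher, against 17.4% of all genes, and 25 lower, against 47.6%, with a median of −0.07. Got2 stood at 1747 CPM in basal OHCs against 68.3 CPM in apical OHCs, with log2 ratios of 2.72 and 6.66 in the ranges, and was thus higher at the base in both types. Pfkfb2, which makes the activator of phosphofructokinase, stood at 0.249 against 92.0 CPM, with −7.07 and −2.17. In OHCs against IHCs 6 were higher, against 17.3% of all genes, and 21 lower, against 39.2%, with a median of −0.42. Pcx, which makes oxaloacetate from pyruvate, was at 0.378, 0.193 and 0.299 CPM in apical, middle and basal OHCs against 39.5, 9.69 and 22.6 CPM in apical, middle and basal IHCs, and its log2 ratio was −4.08. Pdk1, a kinase that switches pyruvate dehydrogenase off, was at 0.109, 55.9 and 0.0996 CPM in the OHC groups against 125, 55.9 and 44.3 CPM in the IHC groups. In middle against apical cells 22 were higher and 11 lower in IHCs, against 28.7% and 23% of all genes, and 30 higher and 13 lower in OHCs, against 31.4% and 31.3%.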

How the data were processed

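Libraries of 139 single cells were read on a HiSeq 2500 (labels' protocols). The deposited table, 1 for the whole series, gives raw read counts by gene. The submitters' processing notes name Trimmomatic, HISAT2, featureCounts and Subread 1.4.6, and the builds GRCm38 and mm10. Strandedness, the handling of reads with several matches and molecular identifiers are left unsaid in these sources. Reads of genes with near-identical copies (Gapdh among them) may be lost or split. Of the 38 genes, 11 share exon positions with a gene on the other strand and 2 (Pfkm and Pkm) with one on the same strand. The 11 are Slc2a1, Hk1, Gpi1, Pfkm, Pfkp, Aldoa, Tpi1, Gapdh, Pdha1, Idh3b and Mdh1, and their counts may include reads of the other gene.

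Columns were matched to samples by title, with 0 columns of values unused. Symbols came from GENCODE M21 by gene identifier: 54587 lines matched with version and 55154 without. A further 181 lines had no symbol, with 0.00885% of all counts. No 2 columns were identical.

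Counts were summed over the cells of each group, scaled by TMM (calculated in Python 3.11.15 with numpy 2.4.6 and pandas 2.3.3, checked against edgeR 4.0.16) and given as CPM. Single-cell values are CPM of the cell's own total. Intervals are exact 95% Poisson intervals and cover counting error only; a count of 0 allows 3 counts. The depth of a group ran from 28574809 to 199944360 counts. The steps were tested on simulated data. Promoter windows are RefSeq's on GRCm38.p6.

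The genes and lists were chosen with earlier results of these data known. Lowest, median and highest cells are given for genes that passed 2-fold the same way in all cells, in each title-number range with at least 5 cells per group and without the deepest cell of each group (up to 8 per comparison), for their paralogs and for the highest gene per length of each role. Other genes were named from listed pathways, at most 2 per list and comparison. Alternatives were equal weight per cell, no deepest cell, each title-number range, thinning, no TMM, DESeq2's size factors, a pseudocount of 0.1 CPM, no filter and 2 chosen after seeing the data: leaving out the 28 cells in the lowest 10% of totals or with over 10% of counts from mitochondrial genes and CT010467.1, and leaving out the cell that holds most of a gene in each group.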

Additional observations from a re-analysis of the deposited data

Results flagged for a closer look

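Among the 8 basal OHCs, a gap test was run per gene on the CPM of single cells. It divides the distance of the highest or lowest cell from its nearest neighbour by the whole range and compares the result with 0.526, Dixon's 95% value for 8 cells. Of 37 measures tested (the genes with a read there and their sum), 32 passed. That value, with a chance rate of about 1 in 20, is for normally distributed data. Most of these genes are at or near 0 in several of the 8 cells, so the rate does not hold here, and a gene read in 1 cell only (Slc2a3 and Dld) gives 1 by construction; the ratios are a description of how far the highest cell stood apart. How many of all genes pass the same test among these 8 cells was not counted. The 32 of 37 thus cannot be read as particular to these genes. The ratio was 0.65 for the summed CPM of the 38 genes.

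For transport and glycolysis to triose phosphates it was 0.749 for Slc2a1, 1 for Slc2a3, 0.652 for Slc2a5, 0.695 for Hk1, 0.884 for Gpi1, 0.94 for Pfkl, 0.611 for Pfkm, 0.898 for Aldoa, 0.771 for Aldoc and 0.83 for Tpi1. For the steps from triose phosphates to pyruvate it was 0.99 for Pgk1, 0.615 for Pgam1, 0.988 for Eno1, 0.919 for Eno2 and 0.939 for Pkm. The lactate genes gave 0.812 for Ldhb, 0.874 for Slc16a1 and 0.991 for Slc16a3. Pyruvate dehydrogenase genes gave 0.767 for Pdha1, 0.583 for Pdhb, 0.993 for Dlat and 1 for Dld. Citric acid cycle genes gave 0.972 for Idh3b, 0.93 for Idh3g, 0.966 for Dlst, 0.957 for Sucla2, 0.877 for Suclg1, 0.615 for Suclg2, 0.944 for Fh1, 0.918 for Mdh1 and 0.993 for Mdh2.

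The cell that stood apart was not always the same: cell 2 in 9 measures, cell 7 in 8, cell 3 in 5, cells 1 and 8 in 4 each and cell 5 in 2. Cells 1 and 2, which have title numbers above 100, had 42.9% and 43.8% of their counts in mitochondrial genes and CT010467.1, against 1.45% to 5.42% in the other 6, and cell 1 held 134269 counts. The part of these values in the flags was not tested.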

How the results depend on the processing

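With 1 sample per group no replicate could be left out, and sequencing depth limits genes with few counts, above all in basal OHCs. No paired analysis was possible because each group counts as 1 sample and what the title numbers stand for is not given. The counts of genes past 2-fold in OHCs against IHCs over the 3 regions and in base or middle against apex stayed within 1.5 times, except as follows. In OHCs against IHCs over the 3 regions, 2 genes were higher in all cells, but 1 without the deepest cells, against 16.7% of all genes, 1 without TMM, also against 16.7%, 6 with DESeq2's size factors, 0 in numbers of 100 or less and 0 without the cell holding most of a gene; 20 in place of 13 were lower without that cell. Numbers of 100 or less gave 14 higher and 6 lower in basal against apical OHCs, 9 higher and 9 lower in middle against apical IHCs, and 4 higher in middle against apical OHCs. Middle against apical IHCs had 1 lower without TMM, against 21.96% of all genes, and middle against apical OHCs 9 higher and 13 lower without shallow cells and cells rich in mitochondrial RNA, against 23.3% and 36.7%. By region, OHCs against IHCs gave 3 to 14 higher and 5 to 12 lower at the apex over the alternatives. The middle gave 4 to 8 higher and 2 to 20 lower, and the base 0 to 7 higher and 11 to 23 lower. With the level of 5 CPM kept, the shares of all genes moved too. At the apex 9.62% to 32.9% were higher and 29.03% to 36.7% lower. In the middle 9.82% to 24.01% were higher and 25.7% to 42.1% lower. At the base 4.92% to 21.1% were higher and 22.95% to 55.9% lower.

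Genes past 2-fold in all cells that turned round are given by their log2 ratio under the alternative; the cause was not tested. With numbers of 100 or less, the ratio was 0.68 for Hk2, 0.091 for Suclg2 and −0.31 for Mdh2 in OHCs against IHCs. In basal against apical OHCs it was 2.30 for Pfkl, 2.76 for Ldhb, −0.28 for Slc16a3, 0.10 for Pdhb, 0.89 for Ogdh, 2.94 for Sucla2, 1.51 for Suclg1 and 5.63 for Mdh1. In basal against apical IHCs it was −0.007 for Hk2, −2.13 for Gpi1, −0.18 for Pfkl, −0.20 for Slc16a3, −0.23 for Pdha1, 0.044 for Idh3a, −0.34 for Idh3g and 0.13 for Sucla2. In middle against apical OHCs it was −1.03 for Slc2a1, −4.41 for Hk2, −2.77 for Gpi1, −0.87 for Pfkp, −0.70 for Aldoa, −0.15 for Pgk1, 0.20 for Pgam1, −1.84 for Eno2, −1.09 for Cs, −0.10 for Idh3b, −0.016 for Idh3g and 0.31 for Sucla2. In middle against apical IHCs it was −1.58 for Gpi1, −0.23 for Aldoc, −0.10 for Pgam1, −0.68 for Eno2, −1.74 for Pdha1, 1.07 for Idh3a, −0.53 for Idh3g, −0.23 for Dlst and −0.019 for Suclg2. With numbers above 100, it was −2.89 for Aldoa in basal against apical OHCs, and 0.35 for Pdhb and −0.38 for Idh3b in basal against apical IHCs.

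With the deepest cell of every group left out, the ratio was 0.11 for Hk2 and −0.33 for Sucla2 in OHCs against IHCs, −2.56 for Hk2 in basal against apical IHCs, and 0.72 for Pgk1 and 0.39 for Sucla2 in basal against apical OHCs. It was −0.032 for Aldoc and 0.091 for Idh3a in middle against apical IHCs, and 1.26 for Eno1 and 3.84 for Sucla2 in middle against apical OHCs. Without the cell holding most of a gene, it was −0.85 for Sucla2 and −0.27 for Mdh2 in OHCs against IHCs, −0.87 for Hk2, −0.14 for Pgk1 and −0.035 for Slc16a3 in basal against apical IHCs, −0.83 for Aldoa and 0.31 for Sucla2 in basal against apical OHCs, and 1.23 for Eno1, 0.93 for Idh3a and 0.38 for Sucla2 in middle against apical OHCs. Without shallow cells and cells rich in mitochondrial RNA, it was −0.18 for Mdh2 in OHCs against IHCs, and −0.016 for Gpi1, −0.93 for Aldoc, −0.12 for Eno2, −0.64 for Ldha and −0.68 for Idh3b in middle against apical OHCs. With equal weight per cell, it was −0.20 for Gpi1 and −0.074 for Idh3b in middle against apical OHCs. Thinning, no TMM, DESeq2's size factors and a pseudocount of 0.1 CPM turned 0 of these ratios round.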
